A study of Mus musculus with 8 samples.

Results

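The Cyp2c genes encode a subfamily of cytochrome P450 enzymes. The family analysed here was given as 10 mouse genes, namely Cyp2c23, Cyp2c29, Cyp2c37, Cyp2c38, Cyp2c39, Cyp2c40, Cyp2c50, Cyp2c54, Cyp2c55 and Cyp2c70. A gene counted as measured when an array probe was annotated to its symbol alone, and 9 of the 10 members met this rule, each with 1 probe, out of 19938 genes so represented in the whole series. Cyp2c40 was the exception: it was covered only by a probe annotated to Cyp2c40, Cyp2c67, Cyp2c68 and Cyp2c69 together.

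The samples came from 4 male C57BL/6J mice, called M24, M48, M50 and M60. Each mouse gave a piece of liver tumor, labelled hepatocellular carcinoma, and a piece of adjacent normal liver, so the groups were 4 tumor and 4 adjacent samples, each hybridised to 1 array. All mice, and therefore also the adjacent tissue, had been injected with an AAV vector (adeno-associated virus, a gene transfer vehicle) when 2 to 3 months old, with necropsy 18 months after that. The labels do not name the vector's cargo or dose, and liver without vector was not analysed here. The comparison asked how expression in a tumor differed from that in the adjacent liver of the same mouse.

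P450 enzymes hold a heme group and oxidise their substrates with electrons from NADPH, which reach them through cytochrome P450 reductase and, for some reactions, cytochrome b5. In liver the CYP2C enzymes metabolise drugs and steroids, and several of them turn arachidonic and linoleic acid into epoxides and hydroxy acids. Many P450 genes are most active in the hepatocytes around the central vein and respond to the nuclear receptors CAR (Nr1i3) and PXR (Nr1i2), with HNF4A as a basal activator.

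The members lie on mouse chromosome 19. In the RefSeq gene order, 9 of them stand in 1 uninterrupted run of 14 coding Cyp2c genes, and Cyp2c23 follows after 52 other coding genes. Promoters of 8 members were found in the RefSeq promoter table of build GRCm38.p6, and Cyp2c23 and Cyp2c54 had no entry there. The stretches below show how alike the upstream sequences of the copies are, around a motif bound by HNF4A, a regulator whose own level is given further on. Each is 60 bases long, reads 5′ to 3′ on the strand of the gene, and ends at least 6 bases before the listed start of the gene; capitals mark the letters CAAAGTC.
Cyp2c29, GRCm38.p6 chr19:39286956-39287015, plus strand: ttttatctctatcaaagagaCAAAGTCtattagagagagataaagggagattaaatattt
Cyp2c39, GRCm38.p6 chr19:39347212-39347271, plus strand: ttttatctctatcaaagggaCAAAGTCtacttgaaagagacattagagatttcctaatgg
Cyp2c38, GRCm38.p6 chr19:39463147-39463206, minus strand: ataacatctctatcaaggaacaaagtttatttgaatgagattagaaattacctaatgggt
Cyp2c37, GRCm38.p6 chr19:39992288-39992347, plus strand: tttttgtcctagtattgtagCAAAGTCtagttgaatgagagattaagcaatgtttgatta
Cyp2c50, GRCm38.p6 chr19:40089545-40089604, plus strand: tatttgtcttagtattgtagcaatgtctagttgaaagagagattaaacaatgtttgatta
Cyp2c40, GRCm38.p6 chr19:39812820-39812879, minus strand: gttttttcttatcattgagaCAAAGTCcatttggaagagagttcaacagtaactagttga
Cyp2c70, GRCm38.p6 chr19:40187311-40187370, minus strand: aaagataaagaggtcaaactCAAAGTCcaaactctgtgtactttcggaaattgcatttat

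The stretches of Cyp2c38 and Cyp2c50 were placed by alignment to Cyp2c29 and Cyp2c37, because the letters CAAAGTC are not in their windows. Searched on both strands in the 300 bases from 250 before to 50 after each start, CAAAGTC was present in the promoters of 5 of 8 members and of the 5 other Cyp2c genes Cyp2c65, Cyp2c66, Cyp2c67, Cyp2c68 and Cyp2c69. It was present in 4.44% of all 32851 promoters of the table. The longer form CAAAGTCCA, which contains the shorter, was found in 2 of 8 members (Cyp2c40 and Cyp2c70). It was found in 4 of the 5 other Cyp2c genes and in 0.475% of all promoters. A match in letters is a description and not a measured binding site. Because the copies descend from each other, their matches are not independent.

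Over the 250 bases before the start, aligned without charge for overhanging ends, Cyp2c37 and Cyp2c50 were identical at 86.3% of the aligned positions. Cyp2c29 and Cyp2c39 (first listed start) were identical at 79.6%, and Cyp2c29 and Cyp2c38 at 74.8%. Cyp2c40 matched Cyp2c69 at 98.6%. Cyp2c70 and Cyp2c55 had no such near copy, with 51.2% to 56.7% identity for Cyp2c70 and 53.2% to 59.3% for Cyp2c55 to the other Cyp2c promoters of the table. Close copies can share signal on an array whose probes were not read for sequence here, so the value of each member below is uncertain to that degree, and agreement between close copies is not independent evidence. Promoter identity does not measure that sharing, because the array reads transcripts, whose likeness was not compared here.

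In the tumors 7 of the 9 measured members fell and 0 rose, by limma with Benjamini-Hochberg adjustment over the 11963 tested genes at an adjusted p under 0.05. The background was 15.7% of tested genes called lower and 16.3% called higher, or 31.9% in either direction. With each array centred on its median the calls over all genes were 2545 lower and 1536 higher, against 1874 and 1945 on the values as deposited, and the members' counts were 7 and 0 in both. At an unadjusted p under 0.05, 8 members were lower and 0 higher. The member added at that looser level was Cyp2c55, whose tumor was higher than the adjacent liver in M48. The share of all tested genes reaching that level was not counted, so this member count has no background beside it. Each difference is the log2 level in a tumor less that in the adjacent liver, averaged over the 4 pairs. A value of -1 is thus a fall to 50 percent. The median difference of the members was -3.67, against 0.0008 for all tested genes. The 7 called members each fell by at least 1 log2 unit, a size and call reached by 2.88% of tested genes. Among them, Cyp2c38 and Cyp2c39 had tumor means in the dim range left out of the test, so the sizes of their falls are uncertain. Both entered the test through their adjacent level, which favours a call. The highest tumor value lay below the lowest adjacent value for the same 7 members, as for 15.6% of tested genes. In 8 members, Cyp2c70 included, the tumor was lower than the adjacent liver in all 4 mice, as for 25.3% of tested genes. Tissue was measured in bulk, so fewer cells that express a gene and less RNA per cell cannot be told apart.

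The trio Cyp2c37, Cyp2c50 and Cyp2c54, neighbours in the gene run, fell by 4.74 to 5.26 on average. Cyp2c37, an arachidonic acid hydroxylase of liver, had levels of 7.88, 6.32, 4.77 and 7.14 in the tumors of M24, M48, M50 and M60, against 11.53, 11.76, 11.98 and 11.86 in the adjacent liver of the same mice. The adjacent samples lay within 0.45 of each other and the tumors ran over 3.11, with M50 lowest and M24 highest. Cyp2c37 differed by -5.26 (SE 0.507, n = 4 pairs, adjusted p = 0.000954), a level 38.3-fold lower in tumors.

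Cyp2c50 and Cyp2c54 encode enzymes that oxidise arachidonic and linoleic acid. Cyp2c50 stood at 8.37, 7.06, 3.57 and 6.78 in the tumors of M24, M48, M50 and M60, against 11.26, 11.11, 11.10 and 11.28 in adjacent liver. Cyp2c54 stood at 7.08, 6.21, 3.98 and 5.72 in the same tumors, against 10.66, 10.49, 10.57 and 10.83 in adjacent liver. For both genes M50 was the lowest tumor and M24 the highest, and the groups did not overlap. In the tumor of M50 both lay below 4.597, the level under which the dimmest 40% of genes were left out of the test, so their falls in that mouse are uncertain in size. Cyp2c50 fell by 4.74 (SE 0.668, adjusted p = 0.00322) and Cyp2c54 by 4.89 (SE 0.442, adjusted p = 0.000764).

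The neighbours Cyp2c29, Cyp2c39 and Cyp2c38, whose promoters are compared above, also fell. Cyp2c29, an abundant liver enzyme that is inducible through CAR, had levels of 10.04, 8.89, 5.98 and 8.18 in the tumors of M24, M48, M50 and M60, against 12.05, 11.64, 11.99 and 12.11 in adjacent liver. Its tumor values ran over 4.05 and its adjacent values over 0.47. Cyp2c29 fell by 3.67 (SE 0.591, adjusted p = 0.00513).

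Cyp2c38, an arachidonic acid epoxygenase, had 5.58, 4.37, 2.94 and 4.58 in the tumors, against 9.09, 9.42, 9.37 and 9.16 in adjacent liver. It fell by 4.89 (SE 0.413, adjusted p = 0.000585). In 3 of the 4 tumors it lay below 4.597, so the size of its fall is uncertain there. Its tumor mean of 4.37 also lay below that level, so Cyp2c38 entered the test through its adjacent level, which favours a call.

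Cyp2c39, known to oxidise retinoic acid, was dim in both tissues. It had 4.30, 3.80, 3.19 and 2.96 in the tumors of M24, M48, M50 and M60, against 5.88, 6.13, 5.47 and 5.65 in adjacent liver. Every tumor value lay below 4.597. Cyp2c39 likewise entered the test only through its adjacent level, and without M24 or without M48 its mean fell under the filter and it was not tested. The fit gave -2.22 (SE 0.176, adjusted p = 0.00049), but with every tumor in the range left out as dim the size of this fall cannot be read.

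Cyp2c23, the gene that lies away from the run and is also known as Cyp2c44, encodes an arachidonic acid epoxygenase of kidney and liver. It stood at 9.92, 10.86, 8.14 and 8.83 in the tumors of M24, M48, M50 and M60, against 11.98, 12.37, 11.99 and 12.19 in adjacent liver. The groups did not overlap, and M48 was the highest tumor. Cyp2c23 fell by 2.70 (SE 0.374, adjusted p = 0.00307), which is 6.48-fold.

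Cyp2c70 and Cyp2c55 did not pass the test. Cyp2c70 makes muricholic acids, the bile acids typical of mice, from chenodeoxycholic acid. It had 12.37, 12.54, 12.12 and 11.89 in the tumors of M24, M48, M50 and M60, against 12.57, 12.58, 12.36 and 12.30 in adjacent liver. The tumor was lower than the adjacent sample in each of the 4 mice, by 0.04 in M48 to 0.41 in M60, but the groups overlapped. The difference was -0.22 (SE 0.0927, adjusted p = 0.118), with a 95% interval from -0.443 to 0.0002. In every mouse the difference of Cyp2c70 was nearer to 0 than that of each called member, but the gap between genes was not tested.

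Cyp2c55, an enzyme best known from colon, was dim. It had 5.42, 4.62, 3.70 and 3.95 in the tumors of M24, M48, M50 and M60, against 6.18, 4.14, 6.01 and 5.19 in adjacent liver. The tumor was lower in 3 mice and higher in M48, whose adjacent liver had the lowest value of the group. The difference was -0.96 (SE 0.397, adjusted p = 0.114), and without M48 it was -1.44 with an adjusted p = 0.0155. That call leaves out the only mouse with a higher tumor. The tumor mean of 4.42 lay below 4.597, so Cyp2c55 too entered the test through its adjacent level, which favours a call. The adjacent liver of M48 was the lowest of the 4 adjacent samples for 34.5% of all tested genes, against 20.3% to 25.8% for the others. It was the lowest for 3 of the 9 members, and without M48 the members called lower also numbered 7, with Cyp2c55 among them and Cyp2c39 not tested.

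**Figure D1:**
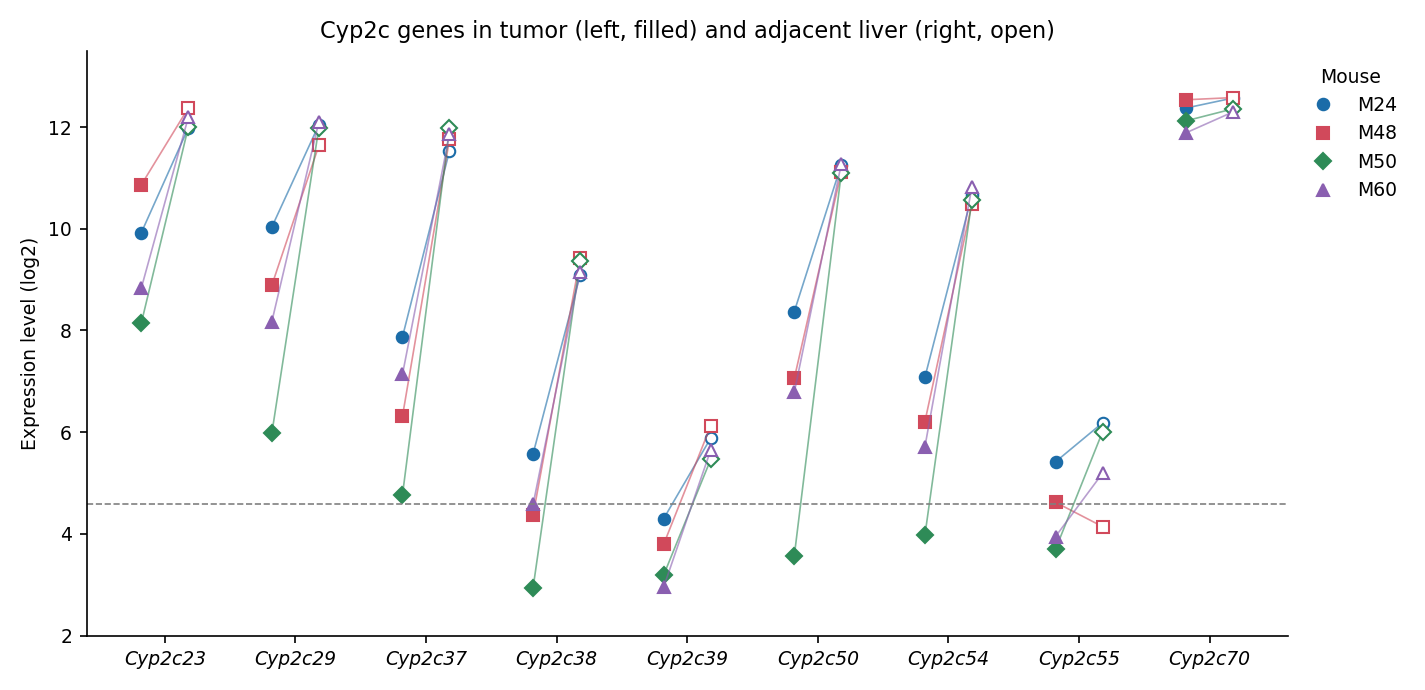
Log2 expression levels of the 9 measured Cyp2c genes, with filled symbols on the left for tumors and open symbols on the right for adjacent liver; each color and shape is a mouse, lines join the samples of a mouse and the dashed line is the filter value of 4.597. For 7 genes all 4 tumors lie below all 4 adjacent samples, while Cyp2c55 and Cyp2c70 overlap, and the tumors spread more than the adjacent samples except for Cyp2c55.

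The members' levels varied more among tumors than among adjacent samples, with Cyp2c55 as the exception. The median range over the 4 samples was 2.72 for tumors and 0.393 for adjacent liver across the members. For all tested genes the same medians were 0.342 and 0.347. The range was wider in tumors for 8 of 9 members and for 48.3% of tested genes, and for Cyp2c70 it was 0.65 in tumors and 0.28 in adjacent liver. The tumor of M50 had the lowest level of 7 members, and that of M60 the lowest of Cyp2c39 and Cyp2c70. The tumor of M24 had the highest level of 7 members, and that of M48 the highest of Cyp2c23 and Cyp2c70. Over all tested genes, M50 was the lowest tumor for 26.1% and M60 for 21.3%. The shares of genes with M24 or M48 as the highest tumor were not counted. The median difference of the members was -6.01 in M50 and -3.93 in M60, and it was -2.75 in M48 and -2.06 in M24. The median over members of the mean difference was -2.90 without M50. Without M24 it was -4.78, but Cyp2c39 was not tested there and was left out of that median. In the tumor of M50, 5 of the 9 members lay below 4.597, so the falls of these genes in that mouse run into the dim end of the scale.

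Cyp2c genes that are not among the 10 members lie between them in the run. Cyp2c67 had 9.51, 8.45, 8.73 and 8.89 in the tumors of M24, M48, M50 and M60, against 10.92, 10.28, 11.83 and 11.32 in adjacent liver, and fell by 2.20 (SE 0.258, adjusted p = 0.00177). Cyp2c68 fell by 1.77 (SE 0.188, adjusted p = 0.00124), with levels of 7.89 to 8.71 in tumors against 9.82 to 10.24 in adjacent liver. The probe shared by Cyp2c40, Cyp2c67, Cyp2c68 and Cyp2c69 read 10.17, 9.49, 9.55 and 10.10 in the tumors, against 11.60, 11.56, 11.96 and 11.66 in adjacent liver. In a fit over 17324 probes, added after seeing the data, it fell by 1.87 (SE 0.167, adjusted p = 0.000795). This signal cannot be divided among the 4 genes, and no level is given for Cyp2c40. Cyp2c65 and Cyp2c66, with all values between 2.43 and 4.08, were below the filter in both tissues and were not tested.

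**Figure D2:**
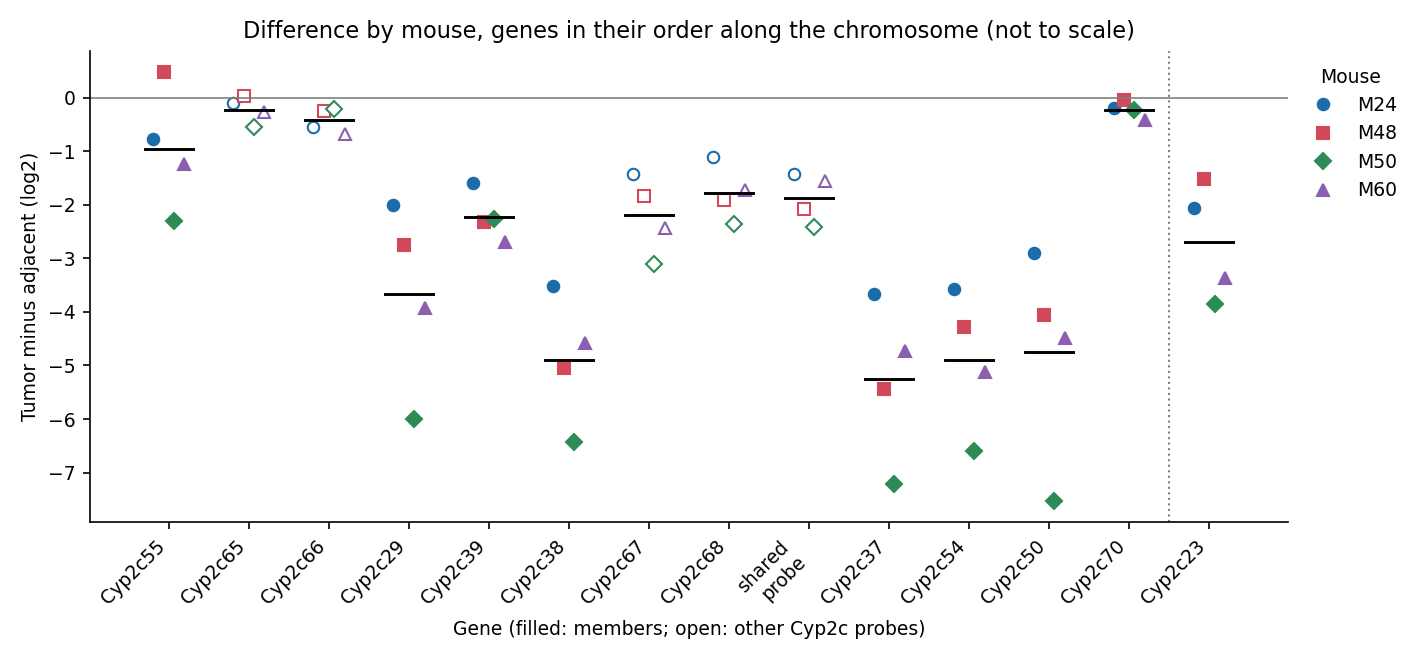
Tumor minus adjacent difference (log2) of each Cyp2c probe by mouse, with genes in their order along chromosome 19 but not to scale; filled symbols are members, open symbols are other Cyp2c probes, black bars are means, and the dotted line marks the 52 coding genes before Cyp2c23. The shared probe, placed where Cyp2c40 lies, and its neighbours Cyp2c67 and Cyp2c68 differ by -1.77 to -2.20, between Cyp2c38 at -4.89 and Cyp2c37 at -5.26, and Cyp2c70 lies near 0.

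Other genes of the Cyp2 family went in both directions. Of 17 tested Cyp2 genes outside the Cyp2c group 8 fell and 1 rose, with a median of -0.40, and without M60 5 fell. Over all tested genes 15.7% were called lower and 16.3% higher. Cyp2e1 had the greatest fall of the 8, at -2.80 (SE 0.466, adjusted p = 0.00577). Its differences were -1.60, -3.15, -4.59 and -1.87 in M24, M48, M50 and M60. Cyp2j9, of another subfamily, fell by 2.07 (SE 0.273, adjusted p = 0.00263), with tumor levels of 5.08 to 5.76 against adjacent levels of 6.70 to 7.89. Cyp2d13 fell by 1.54 (SE 0.166, adjusted p = 0.00133) and Cyp2d9, a male-biased steroid hydroxylase, by 1.19 (SE 0.172, adjusted p = 0.00359). Cyp2j6 rose by 0.88 (SE 0.118, adjusted p = 0.00277). Without M48 the count of higher genes was 2.

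Of 13 tested genes for the redox partners and heme supply of P450 enzymes 9 fell and 1 rose, with a median of -0.46. Without M24 or without M60, 5 fell. Alas1, the rate-limiting enzyme of heme synthesis in liver, fell by 1.07 (SE 0.136, adjusted p = 0.00236), and the later enzyme Urod by 0.42 (SE 0.0754, adjusted p = 0.00754). Cyb5b, the cytochrome b5 of the outer mitochondrial membrane, fell by 0.86 (SE 0.114, adjusted p = 0.00268). Cyb5r3, the reductase of cytochrome b5, rose by 0.64 (SE 0.113, adjusted p = 0.0069). Por, the P450 reductase itself, had no probe of its own symbol and was not analysed here.

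Of 16 tested genes in a list drawn up around eicosanoid substrates and epoxides 7 fell, 4 rose and 5 did not pass, with a median of -0.17. Not every gene of this list need make or use eicosanoids. Ephx2, the soluble epoxide hydrolase that converts the epoxides made by CYP2C enzymes to diols, had 9.69, 9.77, 10.10 and 9.92 in the tumors of M24, M48, M50 and M60, against 11.14, 10.39, 11.48 and 11.23 in adjacent liver. Ephx2 fell by 1.19 (SE 0.147, adjusted p = 0.00209). Cyp4a14 fell by 5.46 (SE 0.747, adjusted p = 0.00294) and Cyp4f15 by 1.39 (SE 0.178, adjusted p = 0.00237), both from fatty acid hydroxylase families.

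Acsl4, which activates arachidonic acid to its CoA ester, rose by 1.77 (SE 0.147, adjusted p = 0.000569). Alox5, the 5-lipoxygenase of leukotriene synthesis, rose by 2.66 (SE 0.422, adjusted p = 0.00487), and its adjacent mean of 4.36 lay under the filter value. The phospholipase A2 family genes Pla2g12b and Pla2g4a rose by 0.58 (adjusted p = 0.00493) and 0.42 (adjusted p = 0.0332), and the adjusted p of Pla2g4a was between 0.0333 and 0.128 with a mouse left out. Alox5 is also expressed in white blood cells, whose lymphocyte and macrophage markers are given below; their part in the result was not tested.

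Among 24 tested regulators of Cyp2c genes 13 fell and 2 rose, with a median of -0.41, and without M60 7 fell. CAR (Nr1i3), the receptor through which phenobarbital-type inducers act, had levels of 7.11, 7.56, 7.94 and 7.51 in the tumors of M24, M48, M50 and M60, against 9.05, 9.49, 9.22 and 9.41 in adjacent liver. Every tumor lay below every adjacent sample, with M24 the lowest tumor and M50 the highest. Nr1i3 fell by 1.77 (SE 0.131, adjusted p = 0.000437).

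Rxra, the partner with which CAR and PXR bind DNA, fell by 0.73 (SE 0.0833, adjusted p = 0.00162). The bile acid receptor Nr1h4 fell by 1.12 (SE 0.108, adjusted p = 0.000949) and the aryl hydrocarbon receptor Ahr by 1.16 (SE 0.124, adjusted p = 0.00133). PXR (Nr1i2) did not pass, at -0.22 (adjusted p = 0.274), and without M48 it was -0.38 with an adjusted p = 0.0367. Hnf4a fell by 0.35 (SE 0.0877, adjusted p = 0.0253), a call lost without each of the 4 mice in turn (adjusted p = 0.0531 to 0.0774) and with quantile normalization (adjusted p = 0.263). Foxa3 rose by 0.90 (SE 0.109, adjusted p = 0.002). Rora rose by 0.46 (adjusted p = 0.0482), with an adjusted p between 0.0464 and 0.158 when a mouse was left out.

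**Figure D3:**
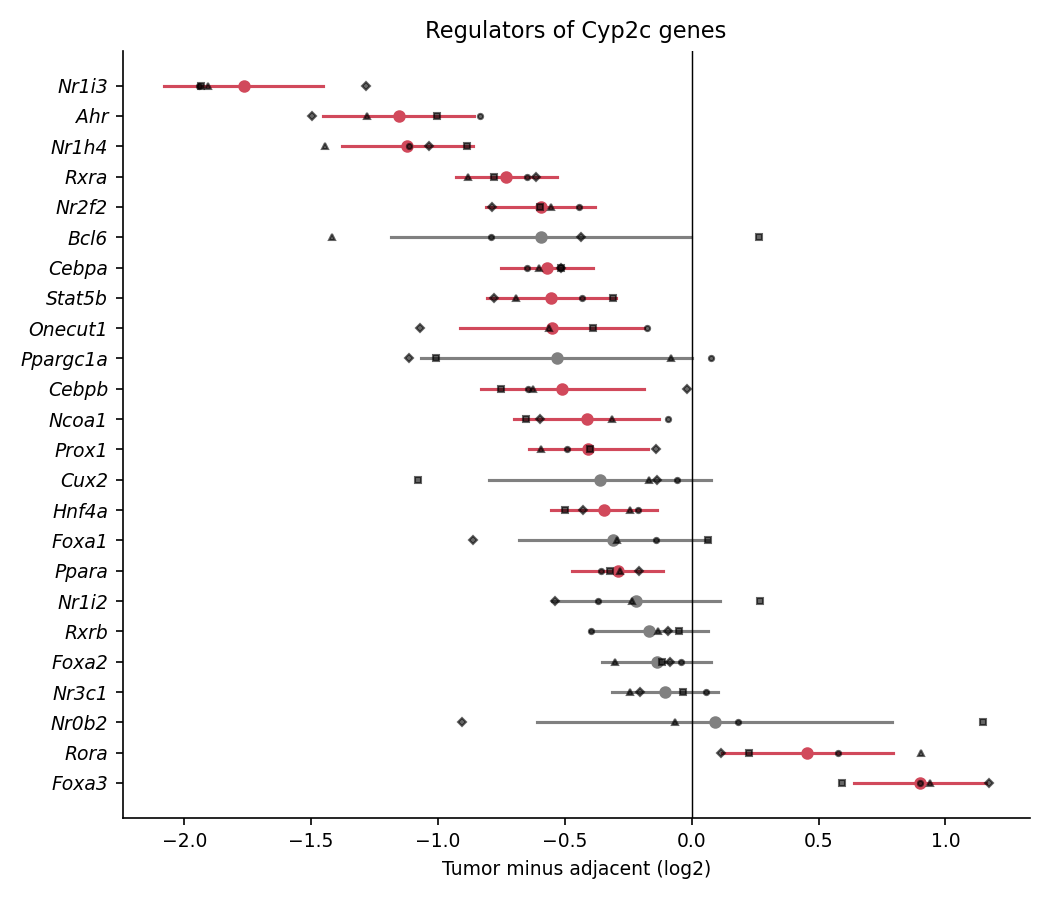
Tumor minus adjacent difference (log2) of 24 tested regulators of Cyp2c genes, with large points for the mean of 4 pairs, bars for the 95% interval of the fit and small symbols for the mice (circle M24, square M48, diamond M50, triangle M60); red marks an adjusted p under 0.05 and grey the rest. Nr1i3 lies lowest at -1.77 and Foxa3 highest at 0.90.

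Pericentral genes were measured beside the Cyp2c genes. Of 20 tested pericentral genes 15 fell and 1 rose, with a median of -1.52. Glutamine synthetase (Glul), which marks the cells next to the central vein, fell by 2.13 (SE 0.115, adjusted p = 0.000221), with differences of -1.86, -2.47, -2.02 and -2.15 in M24, M48, M50 and M60. The glutamate transporter Slc1a2 fell by 4.06 (SE 0.214, adjusted p = 0.00021), and Slc1a4 rose by 2.78 (SE 0.099, adjusted p = 5e-05).

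The bile acid list, chosen for the role of Cyp2c70, had 15 genes that fell and 2 that rose of 21 tested, with a median of -1.12. Cyp7a1, the rate-limiting enzyme, fell by 3.17 (SE 0.327, adjusted p = 0.00116), and without the mouse as a block its adjusted p was 0.0556. Cyp27a1 of the acidic pathway fell by 2.17 (SE 0.147, adjusted p = 0.00033) and Cyp7b1 by 4.12 (SE 0.429, adjusted p = 0.00119). The genes that rose were Cyp39a1 at 0.76 (adjusted p = 0.00307) and Acox2 at 0.60 (adjusted p = 0.0195), and without M50, without M60 or with no replicate block 1 of them was called. Ahr, Cyb5a, Cyp27a1, Cyp2e1, Cyp7a1, Nr0b2 and Nr1h4 stand in more than 1 of these lists, so the counts are not separate.

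The tested genes whose pattern over the 8 arrays was nearest to the mean profile of the 9 members were found by root mean square distance after each gene was centred on its own mean. The nearest were Pon1 (a serum esterase), at 0.347 log2 units, Oat (ornithine aminotransferase) at 0.404 and Rgn (regucalcin) at 0.434. Hpd of tyrosine breakdown, the proline dehydrogenase Prodh, Cyp1a2, the transporter Slco1b2 and Cyp7b1 followed at 0.453 to 0.490. Among the members themselves this distance ran from 0.453 for Cyp2c29 to 1.64 for Cyp2c70. For the mice M24, M48, M50 and M60, the difference of Rgn was -1.42, -1.89, -5.16 and -3.08, and that of Cyp1a2 was -2.70, -1.61, -5.85 and -3.33. Both had their greatest fall in M50, like 7 of the 9 members. These genes were picked for their pattern, so their differences are given here with no test. Cyp7b1 has a test above only as a gene of the bile acid list.

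**Figure D4:**
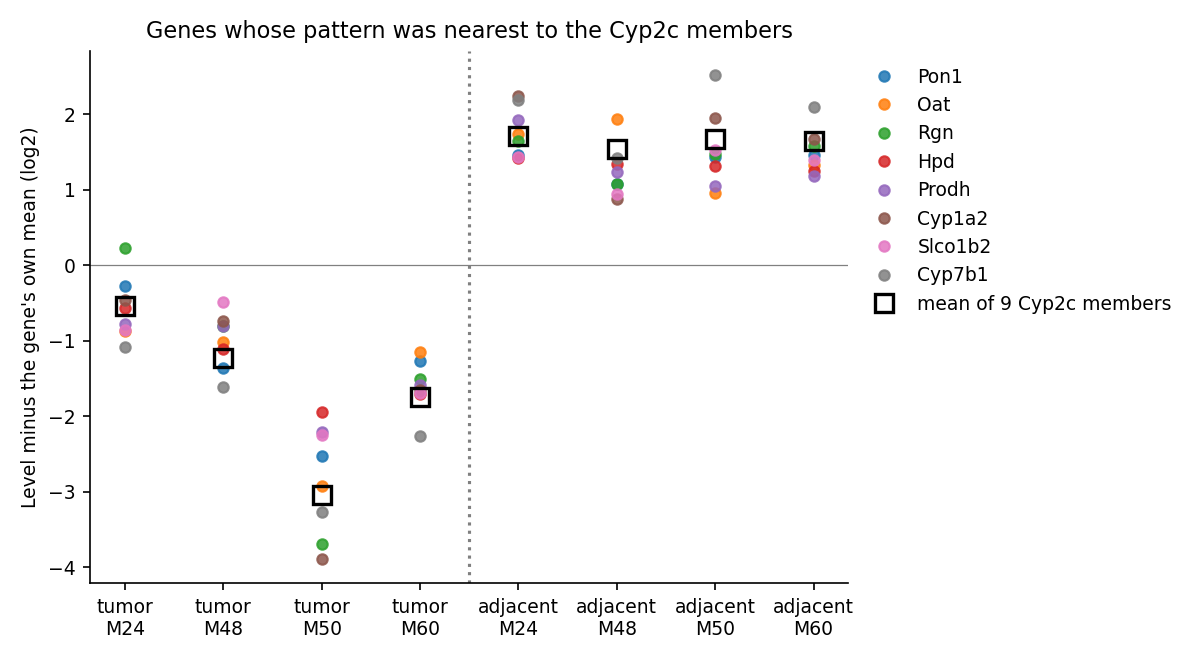
Log2 level minus the gene's own mean over 8 arrays, with the 4 tumors on the left and the 4 adjacent samples on the right; colored points are the 8 genes nearest in pattern and open squares are the mean of the 9 Cyp2c members. The squares stand at -0.54, -1.24, -3.04 and -1.75 in the tumors of M24, M48, M50 and M60 and between 1.54 and 1.71 in adjacent liver.

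Hepatocyte markers were present at high levels in both tissues. Of 7 tested hepatocyte markers 1 fell (Apoa2, -0.32) and 1 rose (Apoa1, 0.32), with 0 calls in either direction without M24, without M48 or without M60. The summed level of the list was 16.25 to 16.46 in tumors and 16.27 to 16.44 in adjacent liver (log2 of the sum of linear values). Albumin (Alb) stood at 13.91 in tumors and 13.80 in adjacent liver. The lowest group mean of the list was 13.18 (Serpina1c in tumors), and the array maxima were 14.37 to 14.49. All these markers thus lay near the top of the scale, and whether their sums follow hepatocyte content was not tested.

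Markers of other cell types were higher in part, and of all tested genes 16.3% were called higher. Endothelial markers rose in 3 of 6 cases (Kdr 0.64, Lyve1 1.49 and Pecam1 1.02) and their summed level was 10.82 to 11.24 in tumors and 10.35 to 10.82 in adjacent liver. Stellate and fibroblast markers rose in 2 of 6 cases (Col1a1 1.92 and Acta2 2.21), with summed levels of 11.68 to 11.92 in tumors and 11.09 to 12.16 in adjacent liver. The others of that list, Rgs5 (0.47), Des (-0.18), Lrat (-0.37) and Dcn (-0.25), did not pass. For the mice M24, M48, M50 and M60, the median difference of the endothelial list was 0.60, 0.69, 0.59 and 0.44, and that of the stellate and fibroblast list was 0.59, -0.18, 0.01 and 0.51. Cholangiocyte markers rose in 2 of 4 tested cases (Sox9 1.36 and Krt19 0.85, the second lost without M24, without M60, with no replicate block and with quantile normalization), with summed levels of 7.98 to 8.86 in tumors and 7.54 to 7.63 in adjacent liver.

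Of 6 Kupffer and macrophage markers Cd68 rose by 0.98 (adjusted p = 0.0405) and Clec4f fell by 0.65 (adjusted p = 0.0225). Both of these calls were lost without M48 and without M50, and with no replicate block. That of Clec4f was also lost without M24 (adjusted p = 0.0897). That of Cd68 was also lost without M60 (adjusted p = 0.119) and with no filter on dim genes. Without M24, C1qa rose by 0.61 (adjusted p = 0.0416). The summed level of that list was 11.07 to 12.59 in tumors and 10.53 to 12.59 in adjacent liver. Of 3 tested lymphocyte markers none passed, with summed levels of 7.16 to 8.57 in tumors and 6.82 to 7.36 in adjacent liver, and 2 of the 5 measured, Cd79a and Ms4a1, stayed below 4.597 on all arrays. Without M48, Nkg7 rose by 1.69 (adjusted p = 0.0156). The part of these other cells in the falls of the Cyp2c genes was not tested.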

How the data were processed

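The deposited values are log2 expression levels of 28874 probes on 8 arrays, which were Affymetrix mouse gene arrays hybridised, per the labels' protocols, with biotin-labelled product of 0.2 ug total RNA. The log base was read from the values, which run from 1.92 to 14.49. Array medians ran from 4.89 to 5.01, which does not by itself show that the columns were brought to one scale. MAS5 is named, without a version, in the submitters' processing notes. How background, summarization and normalization were handled is not given in the sources used here. No detection call and no scan batch entered the tests. Precision is limited by the number of arrays. The samples are separate pieces of 4 mice.

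Of the probes, 21789 had 1 gene symbol in the array annotation, 1621 had several and 5464 had no entry. Where a gene had several single-symbol probes the brightest on average was used, which gave 19938 genes. The dimmest 40% of genes (mean under 4.597) were left out, and 11963 were tested with limma 3.58.1 in R 4.3.3 (lmFit, eBayes with trend, mouse as a block, 3 residual degrees of freedom and a prior of 3.64). All tests were two-sided, with Benjamini-Hochberg adjustment over all tested genes. The design text says that both tissues came from the same mice. Deviations from the group means correlated at 0.313, 0.421, 0.0986 and 0.111 within M24, M48, M50 and M60, and at -0.378 to 0.189 between mice. The fit was tested on simulated data. Alternatives were no block, leaving out each mouse, other filters on dim genes, quantile normalization, median centring, the mean of all probes and no trend.

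The members and lists were chosen with earlier results of these data known. Named from each list were up to 4 tested genes with the smallest p and any gene behind a count of 5 or fewer. Other genes named were chosen after their values were seen. Promoters were aligned with Biopython 1.88. Protein identity of the members was not analysed here.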

Additional observations from a re-analysis of the deposited data

How the results depend on the processing

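Of 104 fits of single members under 12 alternatives, 103 kept the direction and the side of the threshold, and the exception was Cyp2c55 without M48. The members called lower numbered 7 with no replicate block, with no filter, with quantile normalization, with median centring and with each probe fitted separately (added after seeing the data). They numbered 6 to 7 with a mouse left out and 6 when the dimmest 60% of genes were left out, because Cyp2c39 was then not tested (it was also untested without M48, where Cyp2c55 was called). The replicate block changed no call of a member, and the median difference was -3.67 with no replicate block and ran from -4.78 to -2.90 with a mouse left out. The end at -4.78 came without M24, where the untested Cyp2c39 was left out of the median. Over all genes the count of lower genes was 1070 to 1722 and that of higher genes 1246 to 1754 with a mouse left out, against 1874 and 1945 with all mice. Nr0b2, at 0.09 (adjusted p = 0.84), turned to -0.0086 with median centring and ran from -0.26 (without M48) to 0.42 (without M50) with a mouse left out. Of 286 list counts under the alternatives, 41 moved by more than 1.5 times, mostly counts of 1 or 2, and the cause was not tested. Some are given with the results, and not all of the rest are listed here. Regulators called higher numbered 1 with no replicate block, no filter, median centring or no trend. Eicosanoid genes called higher numbered 2 with the stricter filter, and pericentral genes called higher 2 with quantile normalization. Hepatocyte markers called higher numbered 0 with quantile normalization or median centring, and those called lower 0 without M50. Cholangiocyte markers called higher numbered 1 with the stricter filter. The stretch of the scale below 4.597 limits the size of falls in the dimmest tumors.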
